A study of Mus musculus with 15 samples.

Results

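The genes described here encode the nuclear subunits of the mitochondrial oxidative phosphorylation machinery, measured by RNA sequencing of mouse kidney. Members were chosen by symbol in the GENCODE M21 annotation of GRCm38, as protein-coding genes outside the mitochondrial genome whose symbol begins with Nduf and the letter a, b, c, s or v before a number (complex I), is Sdha, Sdhb, Sdhc or Sdhd (complex II), or begins with Uqcr (complex III), with Cox and a number from 4 to 8 (complex IV) or with Atp5 (complex V). The rule found 85 of the 54532 genes in the deposited table, 37 for complex I, 4 for complex II, 8 for complex III, 18 for complex IV and 18 for complex V. Another 12 genes with such symbols are annotated as pseudogenes or as a non-coding RNA and were left out. Ndufa4 was counted with complex I because of its symbol, although its product is known as a subunit of complex IV. Atp5s and Ndufa4l2 were likewise placed by symbol alone, and whether their products are structural subunits of those complexes was not checked.

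Oxidative phosphorylation turns the energy of NADH and succinate into ATP at the inner mitochondrial membrane. Complex I (NADH dehydrogenase) and complex II (succinate dehydrogenase, also an enzyme of the tricarboxylic acid cycle) pass electrons to ubiquinone, complex III (the cytochrome bc1 complex) passes them on to cytochrome c, complex IV (cytochrome c oxidase) passes them to oxygen, and complex V (ATP synthase) makes ATP from the proton gradient. All complexes except complex II also contain subunits encoded in the mitochondrial genome, so that nuclear and mitochondrial genes must supply parts of the same assemblies. Proximal tubule cells depend on this machinery more than most kidney cells, because they reabsorb the bulk of the filtrate and make little ATP by glycolysis.

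Kidneys came from male C57BL/6 mice that were 8 weeks old at the start, with 5 mice in each of 3 groups. The control group (C) ate chow without adenine, the CKD model group (M) ate chow with 0.25% adenine for 4 weeks, and the AA group ate the same adenine chow and was also given 30 mg/kg of asiatic acid (AA, a plant triterpenoid) each day by gavage. After the adenine period all mice ate standard chow until the kidneys were taken at 8 weeks, gavage with AA went on, and the C and M mice received the vehicle. RNA came from kidney tissue, so every value is a mixture of cell types. The sources do not say which part of the kidney was taken. Adenine feeding is known to injure the tubules through crystals. The values are FPKM (fragments per kilobase of exon, divided by a factor for each library), which are corrected for gene length and can be compared between genes. The factors followed median-of-ratios size factors and not the fragments on genes, as described with the processing.

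The number of fragments behind the values was recovered from the smallest steps between them and ranged from 13647000 to 28884000 on genes per library, to the nearest 1000. Mitochondrial genes took 53.0% to 62.5% of these in C, 64.0% to 86.8% in M and 69.2% to 87.2% in AA, so that 6944000 to 13577000 fragments lay outside the mitochondrial genome in C, 2078000 to 7143000 in M and 2226000 to 4271000 in AA. A library's median fragment number per subunit gene was 999 to 1777 in C, 187 to 546 in M and 146 to 352 in AA. M mice 1 to 3 stood apart from M mice 4 and 5, with 10068 to 12222 genes above 0 against 23040 and 25460, and with mitochondrial shares of 84.8% to 86.8% against 72.9% and 64.0%. The counts of members called in comparisons with the M group are therefore also given for each subset, while most other values use all M mice. The kidney markers were present, since none of the 15 proximal tubule and 8 distal nephron markers was at 0 throughout, while fat markers summed to 1.44 to 29.0 FPKM and muscle markers to 0 to 31.7 FPKM.

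Most subunit genes were well expressed in control kidneys. Of the 85 members, 69 were above 0 in all 15 libraries, 82 in at least 5 of them and 2 in none (Cox8c and a second Atp5o entry). The group mean in C had a median of 20.7 FPKM over the 82 genes and ranged up to 127 FPKM, and 62 genes reached 10 FPKM in C, 47 in M and 44 in AA. Complex III genes had the highest median level in C (30.2 FPKM) and complex II genes the lowest (14.2 FPKM), with 20.5, 23.9 and 15.3 FPKM for complexes I, IV and V.

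The most abundant member was Cox6a1, the broadly expressed form of a small regulatory subunit of cytochrome c oxidase. Its values were 109.9, 153, 71.4, 180.4 and 122 FPKM in C mice 1 to 5, 83.2, 48.8, 58.6, 48.2 and 28.8 FPKM in M mice 1 to 5 and 38.4, 33.96, 105, 32.3 and 71.1 FPKM in AA mice 1 to 5, with all M mice except mouse 1 and all AA mice except mouse 3 below the lowest control. The highest members of the other complexes, by the mean of all libraries, were Uqcr10, a small subunit of complex III (58.5 ± 14.4 FPKM in C, SD, n = 5), Ndufa2 of complex I (62.5 ± 19.4 FPKM), Atp5b, the catalytic beta subunit of ATP synthase (53.1 ± 15.2 FPKM), and Sdhb, the iron-sulfur subunit of succinate dehydrogenase (35.4 ± 12.4 FPKM). At the other end stood the forms known from heart and skeletal muscle or from testis. Cox6a2 and Cox8b, the muscle forms, had at most 5.95 and 2.13 FPKM in any kidney, Cox7b2 and Cox6b2, the testis forms, at most 6.34 and 7.92 FPKM, and Cox8c was listed at 0 everywhere.

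Promoters of these genes are known for binding sites of nuclear respiratory factor 1 (NRF1) and of ETS family factors such as the GABP complex, which tie respiratory subunits encoded on many chromosomes to common regulators. RefSeq promoters on GRCm38.p6, from 250 bases before to 50 bases after the start, were found for 69 of the 85 entries (68 genes) and were searched on both strands. The letters used for NRF1, GCGCA and GCGC with any 1 base between them, occurred in 16 of the 68 promoters (23.5%) and in 6.60% of those of 17492 protein-coding genes. The palindromic form with T as that base, which the first pattern includes, occurred in 5 (7.35%) and 1.32%, and CCGGAAG, used for ETS factors, in 15 (22.1%) and 11.9%. AAGATGGCG (YY1) occurred in 8.82% and 1.94%, TCAAGGTCA (ERR alpha) in 2.94% and 0.332%, CCAAT in 44.1% and 39.0%, and TATAAA in 10.3% and 13.3%. The 250 bases before the start are shown for 1 named gene each of complexes I, II, IV and V that holds the NRF1 letters there, with NRF1 and ETS matches in capitals and everything else in lower case.
Ndufa11 (complex I, chr17:56717512-56717761, + strand): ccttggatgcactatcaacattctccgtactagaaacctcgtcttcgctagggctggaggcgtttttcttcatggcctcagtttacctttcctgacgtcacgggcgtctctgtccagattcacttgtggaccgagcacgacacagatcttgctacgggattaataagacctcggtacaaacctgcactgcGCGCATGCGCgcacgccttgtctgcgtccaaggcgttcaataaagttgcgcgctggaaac
Sdhd (complex II, chr9:50603850-50604099, - strand): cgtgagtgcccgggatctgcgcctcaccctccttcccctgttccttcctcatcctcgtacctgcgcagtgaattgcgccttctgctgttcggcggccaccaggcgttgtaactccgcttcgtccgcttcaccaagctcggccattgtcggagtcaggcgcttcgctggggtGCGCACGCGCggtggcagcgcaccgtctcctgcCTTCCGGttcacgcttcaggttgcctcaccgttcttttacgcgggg
Cox6a1 (complex IV, chr5:115348959-115349208, - strand): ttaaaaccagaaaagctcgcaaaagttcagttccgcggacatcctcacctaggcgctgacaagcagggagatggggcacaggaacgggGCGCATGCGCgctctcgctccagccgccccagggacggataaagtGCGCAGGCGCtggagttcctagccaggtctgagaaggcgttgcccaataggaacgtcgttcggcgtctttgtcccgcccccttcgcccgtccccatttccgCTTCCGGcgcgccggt
Atp5h (complex V, chr11:115419920-115420169, - strand): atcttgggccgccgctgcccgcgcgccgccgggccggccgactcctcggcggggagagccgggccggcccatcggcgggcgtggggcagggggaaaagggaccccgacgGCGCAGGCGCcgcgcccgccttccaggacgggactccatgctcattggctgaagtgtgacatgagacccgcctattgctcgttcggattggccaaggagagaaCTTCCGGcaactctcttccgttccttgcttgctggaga
Ndufa11 and Cox6a1 hold the full palindrome, Cox6a1 holds a second NRF1 match 45 bases downstream, and the other 3 genes have an ETS match (read as CTTCCGG on this strand) between the NRF1 letters and the start. A match of letters is a description and shows no binding in these kidneys. The 16 genes with the NRF1 letters had a median difference of -1.03 in AA vs. C and -0.90 in M vs. C on the log2 scale, against -0.95 and -0.71 for the 50 tested genes without them.

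The comparison of M with C asks what adenine feeding changed in these genes. Subunit genes of all 5 complexes were lower on average in the M kidneys, but few passed the test. Of 81 members tested, 73 had a negative difference in mean log2(FPKM + 1), with a median of -0.75 against -0.12 for all 21153 genes tested. Genes were called when limma's Benjamini-Hochberg p, computed over the whole table, did not exceed 0.05 and the difference reached 1 on the log2(FPKM + 1) scale, which understates changes of low genes. In M vs. C 4 members fell and 0 rose (4.94% of those tested), where 1.38% of all genes passed, 1.11% lower and 0.269% higher (1.21% were lower by the adjusted p alone). An unadjusted p under 0.05 was found for 38 of 81 members and for 3493 of all 21153 genes. All 5 M kidneys lay below all 5 C kidneys for 17 members (3.67% of all genes did) and above them for 0 (1.05%), and 13 of the 17 belonged to complex I. In bulk kidney tissue fewer cells of a type and less RNA per cell cannot be told apart, and tubule markers, given with the other lists, were lower too. Over all genes 57 were called higher and 234 lower, against 31 and 1578 under TPM and 132 and 207 after centring the libraries on their medians.

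Uqcrq encodes a small subunit of complex III (GRCm38 chr11:53427922-53430831). It had 36.4, 62.8, 27.9, 58.1 and 45.7 FPKM in C mice 1 to 5 and 12.8, 5.54, 6.43, 17.8 and 12.00 FPKM in M mice 1 to 5. The highest M kidney lay below the lowest C kidney, and the difference was -2.04 ± 0.36 SE, adjusted p = 0.0227 (limma). Ndufa1, an accessory subunit that complex I needs for its assembly (chrX:37187588-37191163), had 47.04, 76.2, 37.4, 72.8 and 51.6 FPKM in C and 23.4, 16.4, 13.7, 17.1 and 10.4 FPKM in M, again without overlap (-1.75 ± 0.31 SE, adjusted p = 0.0227). For Ndufa13, also known as GRIM-19 (chr8:69894180-69902558), C mice had 31.8, 62.5, 21.7, 47.96 and 51.5 FPKM and M mice 10.6, 10.4, 7.77, 19.9 and 18.2 FPKM, and the closest pair was M mouse 4 and C mouse 3 (-1.61 ± 0.36 SE, adjusted p = 0.0497). The values of Ndufa5, a subunit of the matrix arm (chr6:24518666-24528013), were 36.5, 60.05, 37.05, 47.9 and 35.6 FPKM in C and 15.4, 21.3, 10.2, 17.8 and 17.01 FPKM in M, with every M kidney under the lowest control (-1.36 ± 0.29 SE, adjusted p = 0.0402). The plot of FPKM in each kidney shows these 4 genes beside others that behaved differently.

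These 4 calls sat close to the threshold. The count of members that passed was 2 without C mouse 1, 0 without C mouse 2, 4 without C mouse 3, 2 without C mouse 4, 0 without C mouse 5, 3 without M mouse 1, 0 without M mouse 2, 0 without M mouse 3, 5 without M mouse 4 and 10 without M mouse 5. Uqcrq and Ndufa1 passed in 6 of these 10 fits, Ndufa13 in 3 and Ndufa5 in 2, and all 4 were lower in every one. Of 14 other settings (scalings, filters, models and subsets of M) the call was lost under 3 for Uqcrq, 5 for Ndufa1, 6 for Ndufa5 and 8 for Ndufa13. With M mice 4 and 5 alone 0 members passed in limma (53 of 81 had an unadjusted p under 0.05, median difference -0.86), as did 0 of all 20868 genes (2489 had an unadjusted p under 0.05). With M mice 1 to 3 alone 24 members fell and 2 rose (median -0.79), where 15.8% of 17103 genes were lower and 4.09% higher.

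**Figure D1:**
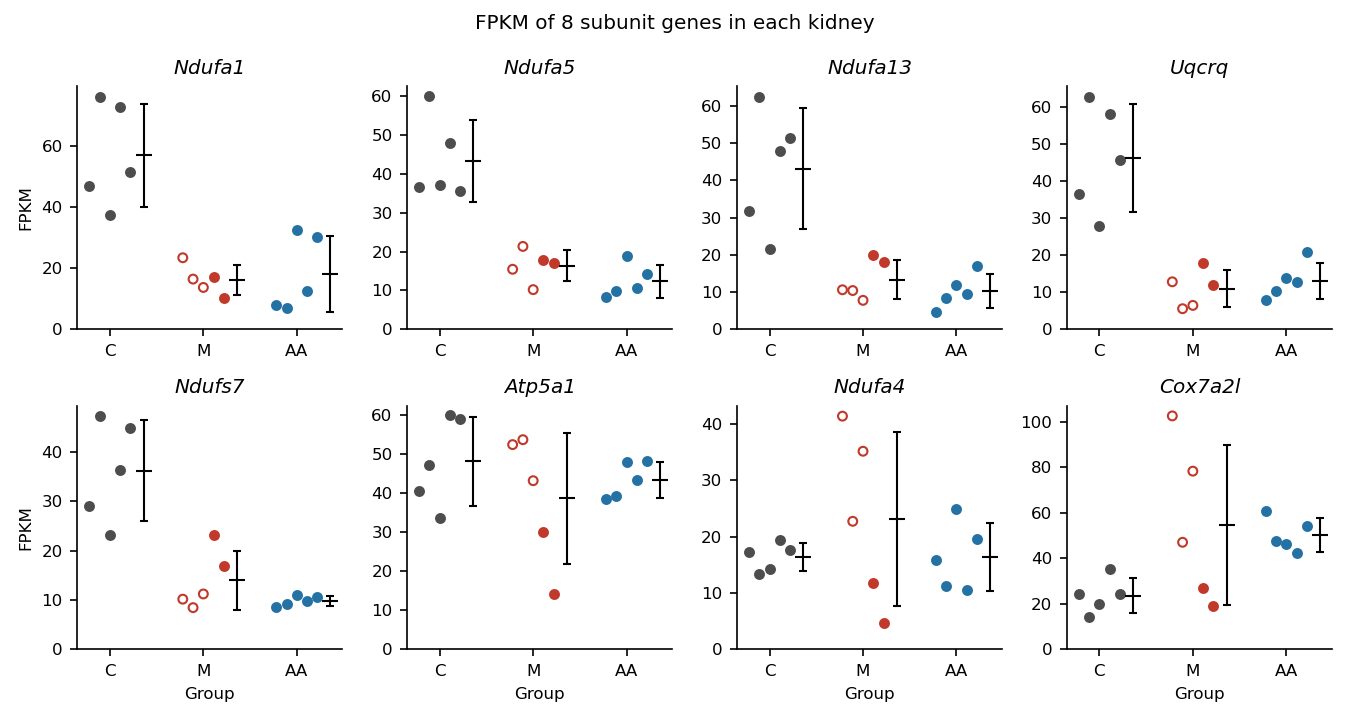
FPKM (vertical axis, linear, from 0) of 8 subunit genes in each kidney of groups C, M and AA (horizontal axis). Each circle is a mouse, open red circles are M mice 1 to 3, and the dash with bars is the mean with SD (n = 5). Ndufa1, Ndufa5, Ndufa13, Uqcrq and Ndufs7 were higher in every C kidney than in any AA kidney, Atp5a1 overlapped between groups, and Ndufa4 and Cox7a2l were higher in M mice 1 to 3 than in M mice 4 and 5.

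By complex, the median difference in M vs. C was -0.92 for the 37 genes of complex I, -0.28 for the 4 of complex II, -0.58 for the 8 of complex III, -0.63 for 15 tested genes of complex IV and -0.65 for 17 of complex V. With M mice 1 to 3 alone the medians of complexes I to V were -0.97, -0.01, -0.44, -0.45 and -0.25. With M mice 4 and 5 alone they were -0.87, -0.68, -1.05, -0.90 and -0.83. After centring each library, the median of complex II was 0.08. In complex I the range went from -2.48 for Ndufs8, an iron-sulfur subunit of the core (adjusted p = 0.132), to 0.16 for Ndufa4 (adjusted p = 0.878). Ndufs8 had 44.2, 61.5, 31.6, 58.2 and 57.7 FPKM in C and 25.1, 0, 4.13, 21.1 and 19.1 FPKM in M, so all M kidneys were lower and mouse 2 was listed at 0. Ndufa4 had 17.2, 13.3, 14.3, 19.4 and 17.7 FPKM in C and 41.4, 22.7, 35.2, 11.7 and 4.71 FPKM in M, with M mice 1 to 3 above every control and M mice 4 and 5 below every control.

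Complex III held the lowest member. Uqcr11, its smallest subunit, had a difference of -2.62 ± 0.78 SE, adjusted p = 0.123, from 48.6, 104, 22.4, 83.3 and 58.6 FPKM in C and 26.3, 16.4, 0, 19.8 and 5.90 FPKM in M, where mouse 3 was listed at 0 and mouse 1 overlapped the controls. Uqcrh, the hinge protein near cytochrome c1, had 29.2, 34.5, 25.6, 47.7 and 34.7 FPKM in C and 70.01, 41.3, 60.8, 24.5 and 15.95 FPKM in M (0.14 ± 0.40 SE, adjusted p = 0.872). In complex IV the extremes were Cox5b, a nuclear subunit on the matrix side (-1.75 ± 0.62 SE, adjusted p = 0.188), and Cox7a2l, placed there by its symbol (0.98 ± 0.45 SE, adjusted p = 0.300). In complex V they were Atp5g1, a gene for subunit c of the rotor (-1.29 ± 0.37 SE, adjusted p = 0.113), and Atp5mpl, a small membrane subunit (0.21 ± 0.43 SE, adjusted p = 0.825), and in complex II Sdhb (-1.28 ± 0.31 SE, adjusted p = 0.0657) and Sdhd, a membrane anchor (-0.06 ± 0.40 SE, adjusted p = 0.947). Of these 8 genes 0 passed the adjusted test in limma, and under totals that include the mitochondrial genes (TPM) all 8 were negative, also Uqcrh, Cox7a2l and Atp5mpl. Sdhb passed in 1 of the 10 fits that left out a library, the one without M mouse 5 (adjusted p = 0.0477), and under 7 of 14 other settings, among them TPM, quantile normalization and M mice 1 to 3 alone (adjusted p from 0.00356 to 0.261 over the 14).

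Core subunits, and Cox4i1 and Cox5a for complex IV, differed among themselves. The ATP synthase gene Atp5a1 had 52.3, 53.6, 43.1, 29.9 and 13.99 FPKM in M mice 1 to 5 against 40.6, 47.2, 33.4, 59.9 and 58.8 FPKM in C. Atp5b had 54.96, 37.2, 41.6, 37.4 and 21.1 FPKM in M mice 1 to 5 against 46.3, 55.4, 33.2, 56.3 and 74.6 FPKM in C. The groups overlapped for both, with intervals of -1.24 to 0.41 and -1.18 to 0.24 (95%) for the difference. Intervals were -0.95 to 0.24 for Ndufs1, the largest iron-sulfur subunit of complex I, and -1.64 to -0.28 for Ndufv1, its NADH-binding flavoprotein. They were -1.18 to 0.29 for Sdha, the flavoprotein of complex II, -1.53 to -0.24 for Uqcrc1, a core protein of complex III, and -1.18 to 0.73 for Uqcrfs1, its Rieske protein. For Cox4i1 and Cox5a of complex IV they were -1.34 to 0.07 and -0.66 to 0.62. Of these 9 intervals those of Ndufv1 and Uqcrc1 excluded 0, before adjustment.

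Within the M group, subunits separated the subsets in both directions. For 19 of the 85 members M mice 1 to 3 were all above M mice 4 and 5, for 10 they were all below, and 56 overlapped, where 7.32% of the 21153 genes tested were all above and 48.2% all below. No test was made of this split. The 19 were Ndufa4, Ndufa9, Ndufb5, Ndufc1, Ndufs4, Ndufv2, Uqcrc2, Uqcrfs1, Uqcrh, Cox6a1, Cox6b1, Cox7a2, Cox7a2l, Atp5a1, Atp5c1, Atp5e, Atp5f1, Atp5g2 and Atp5g3. Among the 10 were Ndufa13, Ndufb7, Ndufs7, Cox4i2, Cox5b and Atp5s. The GC content of the longest protein-coding transcript had a median of 49.8% in the first set and 54.6% in the second. The median difference of each set in AA vs. C, which uses no M library, was -0.16 and -1.38. Depth, gene detection and mitochondrial share moved with this split, and their part in it was not tested.

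The comparison of AA with M asks whether treatment moved these genes away from the model. No subunit gene passed the test. Of 81 members tested 0 were differentially expressed in limma, while 12.8% of 19798 genes passed, 11.7% higher and 1.07% lower (1.34% by the adjusted p alone). An unadjusted p under 0.05 was found for 6 members and for 6360 of all genes. In limma voom on recovered fragments 5 members had one, and 0 passed after adjustment. The median difference was -0.08 against 0.17 for all genes, 50 members were below 0 and 31 above, and the groups overlapped for every member, where 1.31% of all genes were lower and 11.9% higher without overlap. Over all genes 2321 were called higher and 212 lower, against 415 and 7 under TPM, 1584 and 695 after quantile normalization and 1213 and 1600 after centring. Under TPM 0 members passed in limma, and 1 had an unadjusted p under 0.05, where 4322 of all genes did. Medians by complex were -0.21, 0.09, 0.04, -0.07 and -0.07 for complexes I to V. These data limit a change but do not exclude it, since the 95% interval of the difference stayed between -1 and 1 for 25 of the 81 members, and its bounds had medians of -0.92 and 0.77.

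The members at the ends of this comparison had wide spreads. Ndufb6, an accessory subunit of complex I, had the highest difference (1.35 ± 0.61 SE, adjusted p = 0.142), with 10.6, 9.93, 20.1, 10.2 and 12.8 FPKM in AA mice 1 to 5 and 13.5, 0, 12.3, 5.07 and 2.28 FPKM in M mice 1 to 5, where mouse 2 was listed at 0. The lowest was Uqcrb, a subunit of complex III (-1.14 ± 0.39 SE, adjusted p = 0.0571), with 8.05, 4.30, 13.5, 9.82 and 11.6 FPKM in AA and 19.7, 17.6, 44.8, 20.1 and 12.3 FPKM in M, where mouse 3 was the highest kidney of all groups. Ndufb4, an accessory subunit, was the lowest of complex I (-0.87 ± 0.32 SE, adjusted p = 0.0723), with 3.07, 3.94, 9.60, 3.58 and 5.41 FPKM in AA and 9.80, 8.24, 9.99, 10.1 and 9.53 FPKM in M, so that AA mouse 3 alone reached the M range. Of 14 other settings Uqcrb passed under 4 and Ndufb4 under 3. Leaving out a library moved the count to 1 without M mouse 2 (Cox6b2, -1.57, adjusted p = 0.0320), AA mouse 1 (Cox6a2, 1.05, adjusted p = 0.0484) or AA mouse 3 (Ndufb4, -1.09, adjusted p = 0.0273). It moved to 2 without M mouse 5, Uqcrb (-1.32, adjusted p = 0.0265) and Ndufb2 (1.03), an accessory subunit of complex I. Cox6a2, also the upper end of complex IV here, had 0 fragments in M mice 1 to 4 and at most 22 in an AA kidney. It met the filter mainly through AA kidneys and was tested in 5 of the 10 fits, so its value is no evidence of a rise.

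In the other complexes the ends were Sdha and Sdhb (0.17 ± 0.35 SE, adjusted p = 0.777, and -0.30 ± 0.29 SE, adjusted p = 0.520), Uqcrq at the upper end of complex III (0.29 ± 0.37 SE, adjusted p = 0.640), Cox6a2 and Cox6b2 (0.80 ± 0.35 SE, adjusted p = 0.126, and -1.06 ± 0.55 SE, adjusted p = 0.200), and Atp5g1 and Atp5h, a stator subunit of ATP synthase (0.78 ± 0.40 SE, adjusted p = 0.196, and -0.53 ± 0.38 SE, adjusted p = 0.368). Against M mice 4 and 5 alone, 3 members were called higher in AA (Ndufb6, Cox7a2 and Cox7a2l) and 2 lower (Ndufs3 and Cox6b2), where 2.39% of 19208 genes were higher and 6.23% lower. Against M mice 1 to 3 alone, 2 were called higher (Ndufa4l2 and Ndufb2) and 4 lower (Ndufa9, Uqcrb, Uqcrh and Cox7a2), where 19.5% of 16761 genes were higher and 2.8% lower, so Cox7a2 had opposite signs against these subsets.

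Compared with control kidneys, those of the AA group had lower levels of subunits of all 5 complexes, most often of complex I. In AA vs. C 36 of 81 members fell (44.4%) and 1 rose, where 19.8% of all 21898 genes tested passed, 9.61% lower and 10.2% higher. Both comparisons against C use the same 5 control kidneys, and the AA mice had also eaten adenine, so this contrast holds diet and treatment together. Over all genes 2241 were called higher and 2105 lower, against 862 and 5923 under TPM and 1769 and 2638 after centring. The median difference was -0.92 for members and 0.09 for all genes. The 5 AA kidneys lay below all 5 C kidneys for 32 members (12.5% of all genes) and above them for 2 (Ndufb6 and Cox7a2l, 11.5% of all genes). Without the requirement on size 45 members were lower (16.4% of all genes) and 3 higher, the latter being Ndufb6, Cox5a and Cox7a2l. The strip plot by complex shows the 3 comparisons beside each other.

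**Figure D2:**
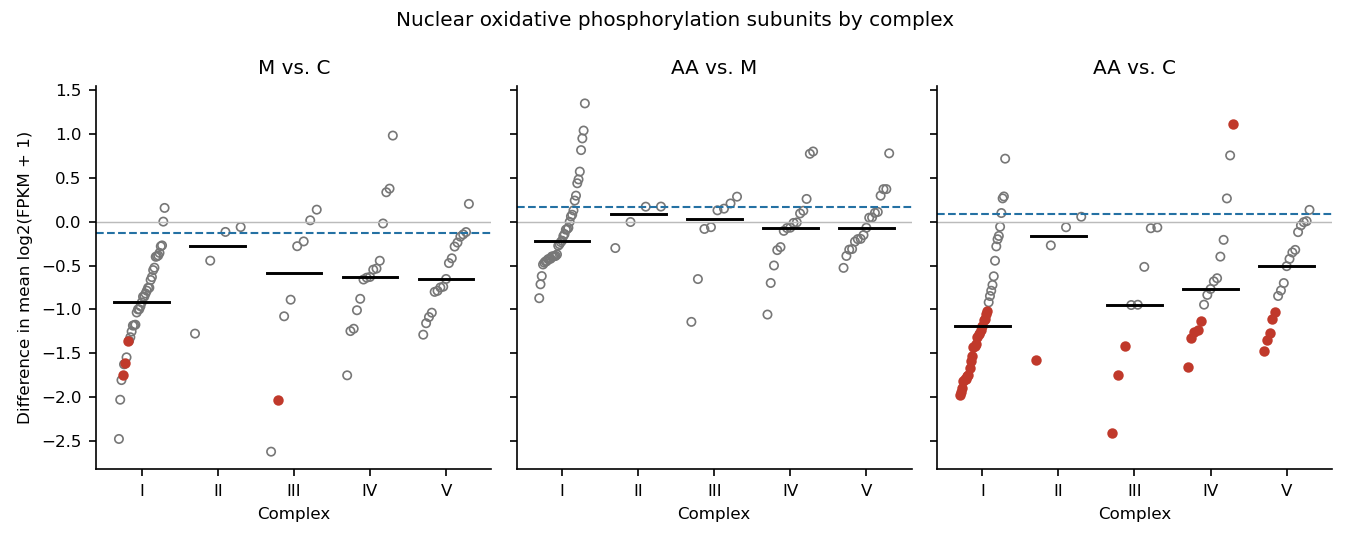
Difference in mean log2(FPKM + 1) of each tested subunit gene (vertical axis) by complex (horizontal axis) in each of the 3 comparisons. Filled red circles passed the limma test with a difference of at least 1, open circles did not, black bars are the complex medians and the dashed blue line is the median of all genes tested. Members that passed number 4 in M vs. C, 0 in AA vs. M and 37 in AA vs. C, of which 22 are in complex I.

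In complex I 22 of 37 members fell and 0 rose, with a median difference of -1.19. They included core subunits of the matrix arm such as Ndufs7, Ndufs8 and Ndufv1 as well as accessory ones. Ndufs7, which carries the last iron-sulfur cluster before ubiquinone, had 29.1, 47.4, 23.1, 36.4 and 44.9 FPKM in C and 8.51, 9.23, 10.98, 9.67 and 10.5 FPKM in AA, and the AA kidneys lay close together and far below the controls (-1.75 ± 0.23 SE, adjusted p = 0.000431). For Ndufa13 the difference was -1.98 ± 0.35 SE, adjusted p = 0.00184, from AA values of 4.64, 8.51, 11.8, 9.36 and 16.9 FPKM, all below the lowest control of 21.7 FPKM. Ndufb7, an accessory subunit on the intermembrane side, had 10.9, 17.6, 7.64, 16.6 and 13.96 FPKM in C and 1.58, 1.86, 3.71, 2.56 and 3.87 FPKM in AA (-1.94 ± 0.28 SE, adjusted p = 0.000562). Ndufa12, an accessory subunit of the matrix arm, had 14.3, 18.1, 17.8, 17.6 and 15.8 FPKM in C and 2.25, 3.11, 7.31, 2.51 and 5.11 FPKM in AA (-1.90 ± 0.27 SE, adjusted p = 0.000562).

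The next members of complex I by size were Ndufa1, Ndufa11, Ndufb4 and Ndufa5. Ndufa1 had 8.06, 6.88, 32.6, 12.6 and 30.2 FPKM in AA mice 1 to 5, mice 3 and 5 being nearest to the controls (-1.82 ± 0.42 SE, adjusted p = 0.00662). Ndufa11, a membrane subunit whose promoter is printed here, had 19.1, 28.8, 17.7, 23.5 and 28.5 FPKM in C and 2.96, 4.87, 6.96, 6.27 and 10.7 FPKM in AA, again without overlap (-1.80 ± 0.29 SE, adjusted p = 0.00108). The difference of Ndufb4 was -1.79 ± 0.31 SE, adjusted p = 0.00156 and that of Ndufa5 -1.75 ± 0.26 SE, adjusted p = 0.000711, the latter with 8.32, 9.78, 18.9, 10.6 and 14.3 FPKM in AA. Ndufv1 had 13.4, 28.1, 12.4, 18.1 and 26.6 FPKM in C and 3.61, 6.16, 7.51, 6.40 and 9.02 FPKM in AA (-1.43 ± 0.29 SE, adjusted p = 0.00359), whereas Ndufs1 had 3.27, 5.36, 2.85, 3.42 and 4.79 FPKM in C and 2.03, 4.76, 2.05, 2.49 and 2.09 FPKM in AA and overlapped (-0.44 ± 0.24 SE, adjusted p = 0.169). Ndufa4 lay at 15.8, 11.2, 25.00, 10.5 and 19.6 FPKM in AA, mouse 1 within the control range, mice 3 and 5 above it and mice 2 and 4 below it (95% interval -0.62 to 0.50).

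Complex II was split between its members. Sdhb fell, with 23.9, 52.3, 22.7, 40.96 and 37.00 FPKM in C and 11.9, 10.4, 13.4, 7.79 and 10.5 FPKM in AA and no overlap (-1.58 ± 0.27 SE, adjusted p = 0.00138). The other 3 did not pass, with intervals of -0.80 to 0.26 for Sdha, -0.46 to 0.57 for Sdhc and -0.89 to 0.77 for Sdhd, the membrane anchors, so that a fall as large as that of Sdhb lies outside all 3 intervals. In complex III Uqcr11, Uqcrq and Uqcrb fell. Uqcr11 had 48.6, 104, 22.4, 83.3 and 58.6 FPKM in C and 0.802, 9.51, 19.6, 12.9 and 25.1 FPKM in AA, AA mouse 1 being the lowest and AA mouse 5 just inside the control range (-2.41 ± 0.65 SE, adjusted p = 0.0133), and Uqcrq had 7.90, 10.2, 13.9, 12.7 and 20.7 FPKM in AA (-1.75 ± 0.30 SE, adjusted p = 0.00143). Uqcrc1 missed the size requirement with -0.95 (adjusted p = 0.0128) and reached it without C mouse 1 or C mouse 3 (-1.06 and -1.08). Uqcrfs1 had 23.4, 26.4, 18.5, 28.4 and 33.9 FPKM in C and 23.6, 23.4, 33.4, 17.1 and 26.8 FPKM in AA, with an interval of -0.59 to 0.44.

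In complex IV 5 of 15 members tested fell (Cox5b, Cox7a1, Cox6a1, Cox7b and Cox7c) and 1 rose. Cox7a1 was near the floor, with 0, 0, 16, 10 and 45 fragments in AA mice 1 to 5. It passed in 3 of the 10 fits that left out a library. Its call was lost with a pseudocount of 0.1, quantile normalization, voom and several other settings, and kept under TPM and centring. Cox7a2l, the member that rose, had 24.3, 13.97, 19.8, 35.2 and 24.2 FPKM in C and 60.9, 47.6, 46.01, 42.4 and 53.9 FPKM in AA, every AA kidney above every control (1.11 ± 0.25 SE, adjusted p = 0.00586). Its M values were 103, 46.97, 78.3, 26.7 and 18.9 FPKM, so M mice 1 to 3 were above and M mice 4 and 5 within the control range. This rise depended on the scaling, since with totals that include mitochondrial genes (TPM) the difference was 0.04, with library-centred values it was 0.96, and without C mouse 2 it was 0.95, both under the required size. Cox5a, a nuclear subunit on the matrix side, had 4.85, 2.26, 2.59, 3.36 and 2.80 FPKM in C and 7.20, 3.91, 5.30, 6.04 and 7.80 FPKM in AA (0.76 ± 0.23 SE, adjusted p = 0.0255), and Cox4i1, the main form of the largest nuclear subunit, had 52.5, 80.4, 51.6, 89.3 and 61.6 FPKM in C and 30.5, 31.7, 64.8, 33.6 and 58.4 FPKM in AA (-0.64 ± 0.28 SE, adjusted p = 0.0942).

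In complex V 5 of 17 members tested fell (Atp5d, Atp5h, Atp5j2, Atp5o and Atp5s), and neither Atp5a1 nor Atp5b was among them. Atp5s had 6, 7, 97, 25 and 12 fragments in AA mice 1 to 5 and passed in all 10 fits that left out a library. Atp5a1 had 38.4, 39.1, 47.7, 43.3 and 48.1 FPKM and Atp5b 29.03, 35.98, 43.1, 37.1 and 47.7 FPKM in AA mice 1 to 5, all inside the range of the controls except Atp5b in AA mouse 1, with intervals of -0.60 to 0.36 and -0.97 to 0.12. Atp5mpl had 11.1, 20.9, 11.2, 7.75 and 14.3 FPKM in AA (0.01 ± 0.26 SE, adjusted p = 0.983). Medians by complex were -1.19, -0.17, -0.95, -0.77 and -0.51 for complexes I to V. All 36 falls kept their sign when any 1 of the 10 libraries was dropped, 27 of them passed each time, and the number of members called stayed between 28 (without C mouse 2) and 40 (without C mouse 3).

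The mean log2(FPKM + 1) of the subunits of a complex in each kidney shows how far the groups overlapped. Over the 37 genes of complex I it was 4.20 ± 0.28 in C, 3.23 ± 0.43 in M and 3.17 ± 0.39 in AA (SD, n = 5), and M mouse 1 at 3.86 was the only M or AA kidney above the lowest control at 3.79. Complex III gave 4.88 ± 0.36, 4.01 ± 0.51 and 3.86 ± 0.38, again with M mouse 1 at 4.76 among the controls and all AA kidneys below them. In complex II 4.06 ± 0.31 in C stood beside 3.59 ± 0.58 and 3.598 ± 0.31. There 3 of the AA kidneys and M mouse 2 lay within the control range, and M mouse 1 at 4.52 lay above the highest control at 4.43. Complex IV gave 4.02 ± 0.37, 3.52 ± 0.35 and 3.52 ± 0.25, and complex V 4.15 ± 0.27, 3.56 ± 0.39 and 3.55 ± 0.31. All members together made up 1.14% to 1.64% of the fragments outside the mitochondrial genome in C, 0.670% to 1.56% in M and 0.667% to 1.11% in AA.

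**Figure D3:**
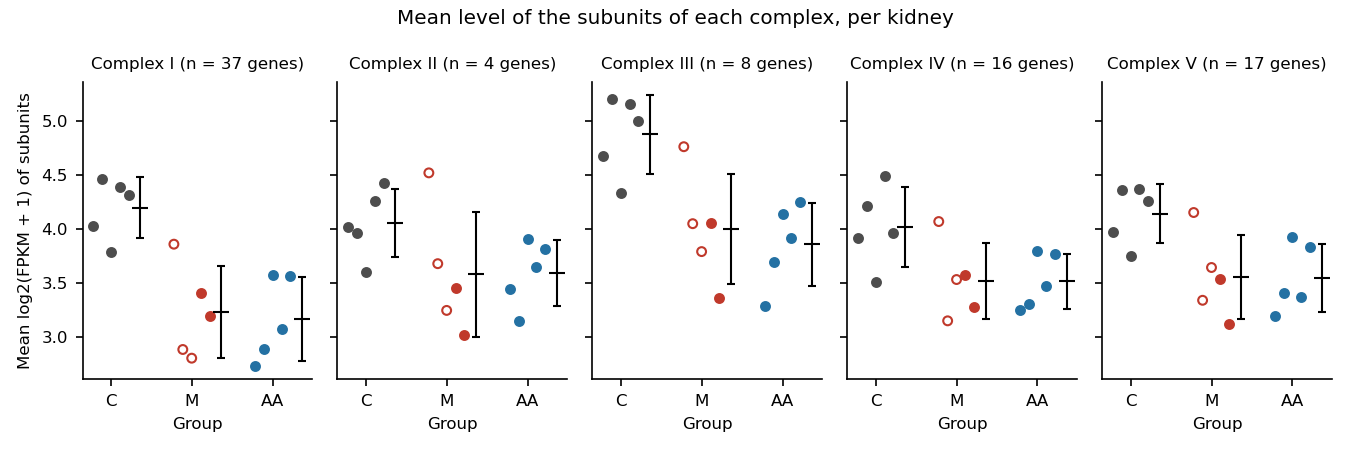
Mean log2(FPKM + 1) of the subunit genes of each complex (vertical axis, which does not start at 0) in each kidney of groups C, M and AA (horizontal axis). Open red circles are M mice 1 to 3, and the dash with bars is the mean with SD (n = 5). All 5 AA kidneys lie below all 5 controls for complexes I and III, and M mouse 1 lies highest among the M mice in all 5 panels.

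Paralog pairs were compared within a library, where the scaling cancels apart from the pseudocount if both forms were detected. Cox7a1 had 0 fragments in M mice 1 and 2 and AA mice 1 and 2. Cox4i2 had 0 in M mice 1 and 3 and AA mice 2, 3 and 5, and Ndufa4l2 in M mice 2 and 3. In those kidneys the ratio follows the other form alone, and scaling and depth do not cancel. The highest AA ratios of Cox7a2 to Cox7a1, 5.41 and 4.88, were those of AA mice 1 and 2. The log2 ratio of Cox7a2 (the form of most tissues) to Cox7a1 (the heart and muscle form) was 2.30 ± 0.42 in C, 3.86 ± 2.03 in M and 3.89 ± 1.22 in AA. The difference of 1.59 in AA vs. C had an exact permutation p = 0.0159, adjusted to 0.143 over 9 tests. Cox4i1 to Cox4i2, the form found in lung and induced in low oxygen, had ratios of 4.62 ± 0.20, 4.43 ± 1.42 and 4.74 ± 1.36. Ndufa4 to Ndufa4l2, a hypoxia-induced form, had 2.16 ± 0.39, 3.07 ± 1.97 and 1.82 ± 0.53. Of the 9 exact tests 0 passed after adjustment, 1 had an unadjusted p under 0.05 (the AA vs. C ratio of Cox7a2 to Cox7a1).

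The other genes of the pathway were followed as lists. As a reference for the counts in every list, also the cell markers, 1.11% of all genes were called lower and 0.269% higher in M vs. C. The shares were 1.07% and 11.7% in AA vs. M, and 9.61% and 10.2% in AA vs. C. The 13 subunits encoded in the mitochondrial genome did not share the falls, with median differences of 0.91 in M vs. C, 0.08 in AA vs. M and 1.07 in AA vs. C. Of the 13 genes 7 rose in AA vs. C and 0 passed in the other comparisons. The largest of these 7 rises, that of mt-Co1, a catalytic subunit of complex IV named after its value was seen, was 1.94 ± 0.36 SE, adjusted p = 0.00222, but under TPM and quantile scaling its difference was 0.83 and 0.44, so the rise past 1 depended on the scaling. The mitochondrial share does not enter the deposited values but enters TPM, and with TPM the median of all genes shifted by -0.45 in M vs. C, and by -0.48 for AA against C. Against that shift the members' medians under TPM were -1.74 and -1.93, and 56 and 69 members passed.

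Factors that assemble the complexes (47 found) had medians of -0.40 in M vs. C, where 0 of 45 tested passed, -0.03 in AA vs. M and -0.54 in AA vs. C, where 10 of 45 fell. In AA vs. M 2 of 42 tested rose, where 11.7% of all genes were called higher. They were Cox10, which is needed to make the heme A of complex IV (1.88 ± 0.49 SE, adjusted p = 0.0180), and Timmdc1, a complex I assembly factor (1.54 ± 0.40 SE, adjusted p = 0.0184). In M mice 1 to 3 Cox10 was listed at 0, 0 and 0.267 FPKM and Timmdc1 at 1.26, 1.18 and 0 FPKM. Neither passed against M mice 4 and 5 alone (0.85 and 0.75) or under TPM (1.76 and 1.44), and Timmdc1 was lost under 7 of 14 other settings, also with a pseudocount of 0.1, TPM without mitochondrial genes, centring, library weights and voom (adjusted p up to 0.175). Of the 14 tricarboxylic acid cycle enzymes 3 fell in AA vs. C (median -0.63), and 0 passed in either comparison with M (median -0.50 for M vs. C, -0.13 for AA vs. M).

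Among 14 regulators of mitochondrial biogenesis 0 passed in M vs. C (median -0.22). In AA vs. M 2 of the 14 rose, where 11.7% of all genes were called higher. These were Tfb1m, a mitochondrial rRNA methyltransferase (1.32 ± 0.37 SE, adjusted p = 0.0247), and Ppargc1b, a coactivator of respiratory genes (1.29 ± 0.37 SE, adjusted p = 0.0266). In M mice 1 to 3 Tfb1m was listed at 0, 1.41 and 0 FPKM and Ppargc1b at 0, 0 and 0.332 FPKM. Neither gene passed against M mice 4 and 5 alone (0.77 and 0.56). The call of Tfb1m was also lost without M mouse 1 or 3 or AA mouse 2 (adjusted p from 0.0567 to 0.0671), and that of Ppargc1b without M mouse 1, 2 or 3 or AA mouse 1 or 2 (adjusted p from 0.0543 to 0.0647). Of 14 other settings Tfb1m was lost under 5 and Ppargc1b under 7, both under TPM (adjusted p = 0.189 and 0.206), TPM without mitochondrial genes and centring (differences of 0.81 and 0.77), Tfb1m with a pseudocount of 0.1, and Ppargc1b with genes above 0 in any library, library weights and the replicate block. In AA vs. C 2 fell, where 9.61% of all genes were called lower. They were Esrra, which encodes the nuclear receptor ERR alpha (-2.41 ± 0.46 SE, adjusted p = 0.00273), and Polrmt, the mitochondrial RNA polymerase (-1.93 ± 0.27 SE, adjusted p = 0.000562), both named after their values were seen. Esrra had 17.3, 48.3, 13.2, 14.1 and 35.3 FPKM in C mice 1 to 5 and 0.694, 2.79, 3.36, 6.53 and 6.82 FPKM in AA mice 1 to 5, with no overlap. Of 9 electron carriers and exchangers Etfb, the beta subunit of the electron transfer flavoprotein, fell in M vs. C (-2.21 ± 0.41 SE, adjusted p = 0.0257), AA vs. M (-1.55 ± 0.35 SE, adjusted p = 0.00948) and AA vs. C (-3.76 ± 0.39 SE, adjusted p = 0.000133), with AA mouse 1 listed at 0, and the other 8 did not pass in any of them. The first of these 3 calls was lost without C mouse 2, 4 or 5 or M mouse 1, 2 or 3 (adjusted p from 0.0524 to 0.0871), with genes above 0 in any library kept (adjusted p = 0.0678), in voom (adjusted p = 0.136) and with M mice 4 and 5 alone (adjusted p = 0.223). The second was lost under TPM (adjusted p = 0.0757).

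Against C, markers of tubule cells and subunit genes both had negative medians. In AA vs. M the median difference was 0.55 for proximal tubule markers and 0.29 for the distal nephron markers, against -0.08 for the members. Of 15 proximal tubule markers 8 fell in M vs. C (median difference -2.08) and 9 in AA vs. C (median -1.93), and their summed level was 460.5 to 2929 FPKM in C, 31.5 to 151 FPKM in M and 86.6 to 146 FPKM in AA. Of 8 markers of the thick ascending limb, distal tubule and collecting duct 2 fell in M vs. C (Aqp2 and Slc12a3) and 4 in AA vs. C, with summed levels of 161 to 528, 26.5 to 119.7 and 48.5 to 77.0 FPKM. Of 9 leukocyte markers 3 rose in M vs. C (Lyz2, Ctss and C1qb), and in AA vs. C 4 rose (these and C1qa) and 1 fell (Csf1r). Of 8 fibroblast markers 2 rose in M vs. C (Vim and Col3a1) and 6 when AA was set against C. Summed levels were 27.6 to 266 FPKM in C, 239.6 to 504 in M and 163.8 to 251.6 in AA for leukocyte markers, and 71.3 to 161, 156 to 461 and 294 to 496 FPKM for fibroblast markers. In AA vs. M 1 proximal tubule marker rose (Hnf4a), 1 leukocyte marker fell (C1qb), and of the fibroblast markers 1 rose (Col1a1) and 1 fell (Vim). The markers called in AA vs. C were named after their values were seen. Of the fat and muscle markers 0 passed in limma. The part of these shifts in the subunit results was not tested.

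Base composition moved with the differences against C. GC content was taken from the longest protein-coding transcript of each gene. Across the 81 members, which are not independent replicates, the Spearman correlation of the AA vs. C difference with GC content was -0.29. It was -0.32 across 15753 protein-coding genes. In M vs. C it was -0.38 and -0.28. The 49 members with a GC content of at least 50% had a median of -1.10 in AA vs. C and the 32 with a lower one -0.40, where protein-coding genes had -0.23 and 0.10. Members of both classes were thus lower than protein-coding genes of the same class in both M vs. C and AA vs. C. The part of composition in the single calls was not tested.

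**Figure D4:**
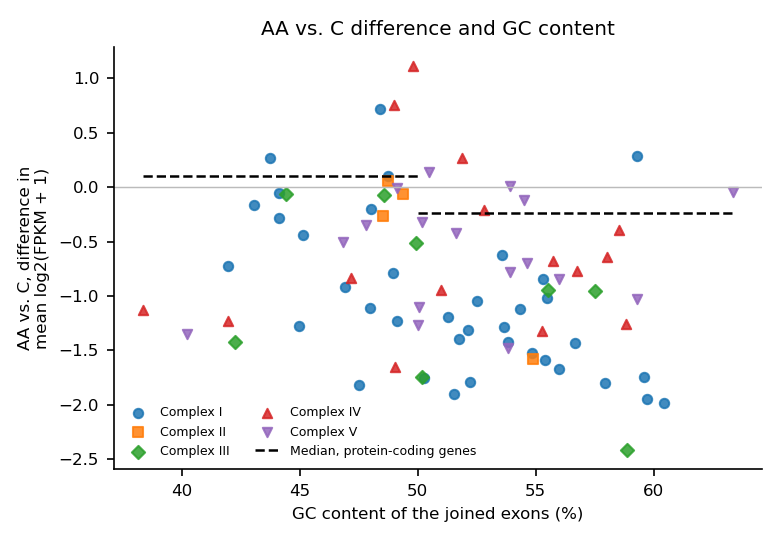
Difference in mean log2(FPKM + 1) in AA vs. C (vertical axis) of the 81 tested subunit genes against GC content in percent (horizontal axis). GC content is that of each gene's longest protein-coding transcript, although the axis label names the joined exons. Symbols mark the complex, and the dashed lines are the medians of protein-coding genes with a GC content under 50% (0.10) and of at least 50% (-0.23). Most members lie below the dashed lines on both sides, and the 3 lowest values (Uqcr11, Ndufb7 and Ndufa13) have a GC content of 58.9% to 60.4%.

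Reads that near-identical genes share make some values uncertain. By words of 31 bases in GENCODE M21 transcripts, 62 of the 85 members shared less than 10% of their words with other genes. The second Atp5o entry, listed at 0 throughout, shared 94% with Donson, and Atp5g2 (40.2%), Uqcrb (32.4%), Ndufs5 (26.5%), Atp5h (25.4%) and Cox7c (24.5%) shared most among expressed members. Of the genes described at length, Ndufa12 (20.2%), Ndufb4 (19.1%), Cox6a1 (18.5%), Cox7a2l (16.6%) and Uqcr11 (12.1%) were the ones over 10%, beside Uqcrb.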

How the data were processed

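Poly-A RNA of 15 kidneys was sequenced with paired reads of 150 bases. The submitters' processing notes name fastp, HISAT2 (2.0.5), featureCounts (1.5.0-p3) and mm10. The authors deposited FPKM values per gene, and their DESeq2 counts were not used here. The deposited FPKM values did not divide by the fragments on genes: 97.8% to 99.3% of low values were whole fragments within 0.02 under denominators that followed median-of-ratios size factors over 7206 genes, so the mitochondrial share does not enter them. Which tool gave this scaling is not given in the sources used here.

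Gene IDs were matched to GENCODE M21, where 37 IDs had no entry. Genes above 0 in at least 5 of 10 libraries were tested with limma (3.58.1, intensity trend, R 4.3.3) on log2(FPKM + 1) for each pair of groups, from the 10 libraries of that pair. P-values were adjusted by the Benjamini-Hochberg method over all genes tested, and a gene was called at 0.05 with a difference of at least 1. Paralog ratios were compared with two-sided exact permutation tests (Python 3.11.15, scipy 1.17.1), and the code was tested on simulated data. Intervals are 95%. Nothing says that reads were counted by strand.

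Members named with values were those called (the 10 largest where more were). The highest and the extremes of each complex in M vs. C and AA vs. M were also named. So were core subunits (with Cox4i1 and Cox5a for complex IV), paralogs, and the extremes called of the other lists in M vs. C and AA vs. M. Others are said to be chosen after their values were seen. Members and lists were chosen with earlier results of these data known. Alternatives were a pseudocount of 0.1, other filters, TPM with and without mitochondrial genes, quantile and median scaling, a joint fit, library weights, a replicate block, no trend, voom, M mice 4 and 5 or 1 to 3 alone and each library left out. Subunits whose symbols the rule misses (such as Ndufab1, Usmg5 and Atpif1) were not counted as members, and the values of some other genes are not reported here.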

Additional observations from a re-analysis of the deposited data

Results flagged for a closer look

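Among the members described with values, 129 groups of 5 kidneys were examined for a single kidney far from the other 4, and 6 had one, where chance gives about 1 in 20. Of these, 4 concern forms known from muscle or testis that were listed at 0 in the other kidneys of the group: Cox6a2 at 0.801 FPKM in M mouse 5, Cox7b2 at 0.747 FPKM in C mouse 1 and at 0.236 FPKM in M mouse 5, and Cox8b at 1.03 FPKM in AA mouse 5. Ndufb4 in M mouse 2 (8.24 FPKM) lay below the other M kidneys, which had 9.53 to 10.1 FPKM. Ndufs1 in AA mouse 2 (4.76 FPKM) lay above the other AA kidneys, which had 2.03 to 2.49 FPKM.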

How the results depend on the processing

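The AA vs. C fall of the members kept its direction under all settings tried, with 28 to 42 members passing except under TPM, while the 4 calls of M vs. C and single calls of AA vs. M depended on the setting. Voom was an alternative chosen after seeing the data. The scaling moved the median of all genes in M vs. C by -0.45 under TPM, -0.35 under TPM without mitochondrial genes, 0.17 under quantile normalization and 0.36 after centring, in AA vs. M by 0.21, -0.27 and -0.52 under the last 3, and in AA vs. C by -0.48 under TPM and -0.15 after centring. Values below are counts or log2 differences, and their causes were not tested. Same-numbered mice did not pair (r from -0.13 to 0.22, not above 0.1 for every pair). The median fragment number per member, 146.3 to 546 in M and AA libraries against 998.9 to 1777 in C, limits low members most.

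With genes above 0 in any library kept, 0 members passed in M vs. C. With a mean of at least 1 FPKM required, 8 members passed in M vs. C. With TPM, 56 members passed in M vs. C, the members' median was -1.74 in M vs. C, 69 members passed in AA vs. C and the members' median was -1.93 in AA vs. C. The sign turned there for Atp5mpl M vs. C -0.78, Atp5mpl AA vs. C -1.05, Cox5a AA vs. C -0.13, Cox7a2l M vs. C -0.00823, Ndufa4 M vs. C -0.85, Uqcrh M vs. C -0.87. With TPM computed without mitochondrial genes, 2 members passed in M vs. C and 1 member passed in AA vs. M. The sign turned there for Atp5mpl AA vs. C -0.0939, Cox5a M vs. C 0.0492, Sdhd M vs. C 0.0186. After quantile normalization, 7 members passed in M vs. C and 2 members passed in AA vs. M. The sign turned there for Cox5a M vs. C 0.15, Sdhd M vs. C 0.0562. With each library centred on its median, 0 members passed in M vs. C, the members' median was -0.39 in M vs. C, 3 members passed in AA vs. M and the members' median was -0.60 in AA vs. M. The sign turned there for Atp5mpl AA vs. C -0.15, Cox5a M vs. C 0.34, Ndufs1 M vs. C 0.00710, Sdha AA vs. M -0.34, Sdhd M vs. C 0.30, Uqcrfs1 M vs. C 0.14, Uqcrq AA vs. M -0.23. With all 15 libraries in 1 fit, 13 members passed in M vs. C and 1 member passed in AA vs. M. With the replicate number as a block, 2 members passed in M vs. C. Without the intensity trend, 7 members passed in M vs. C. With limma voom on recovered fragments, 1 member passed in M vs. C. The sign turned there for Atp5mpl M vs. C -0.0119, Atp5mpl AA vs. C -0.0550, Ndufa4 M vs. C -0.14, Sdhd AA vs. C 0.0780. With M mice 4 and 5 only, 0 members passed in M vs. C and 5 members passed in AA vs. M. The sign turned there for Atp5mpl M vs. C -0.53, Cox7a2l M vs. C -0.000318, Ndufa4 M vs. C -1.02, Uqcrh M vs. C -0.73, Uqcrq AA vs. M -0.21, Cox7a2/Cox7a1 ratio M vs. C -0.28, Ndufa4/Ndufa4l2 ratio M vs. C -1.15, Ndufa4/Ndufa4l2 ratio AA vs. M 0.80. With M mice 1 to 3 only, 26 members passed in M vs. C and 6 members passed in AA vs. M. The sign turned there for Atp5a1 M vs. C 0.0750, Cox5a M vs. C 0.0852, Sdha AA vs. M -0.0712, Sdhd M vs. C 0.20, Uqcrfs1 M vs. C 0.39. With library quality weights, 2 members passed in AA vs. M. The sign turned there for Atp5mpl AA vs. C -0.12, Cox5a M vs. C 0.00330, Ndufa4 M vs. C -0.25, Sdhd AA vs. C 0.0363, Uqcrh M vs. C -0.20, Uqcrq AA vs. M -0.0387. With a pseudocount of 0.1, the sign turned for Cox4i1/Cox4i2 ratio M vs. C 0.82.

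Leaving out 1 library at a time gave these lowest and highest values where a sign or count moved: the count of members passing M vs. C 0 to 10, the count of members passing AA vs. M 0 to 2, Atp5mpl M vs. C -0.11 to 0.55, Atp5mpl AA vs. C -0.17 to 0.16, Cox5a M vs. C -0.20 to 0.11, Ndufa4 M vs. C -0.13 to 0.60, Ndufa4 AA vs. C -0.22 to 0.0768, Sdhd M vs. C -0.35 to 0.15, Sdhd AA vs. C -0.25 to 0.22, Uqcrfs1 M vs. C -0.54 to 0.13, Uqcrfs1 AA vs. C -0.18 to 0.0484, Uqcrh M vs. C -0.0854 to 0.43, Cox4i1/Cox4i2 ratio M vs. C -0.65 to 0.20, Cox4i1/Cox4i2 ratio AA vs. M -0.0765 to 0.79, Cox4i1/Cox4i2 ratio AA vs. C -0.20 to 0.59, Cox7a2/Cox7a1 ratio AA vs. M -0.54 to 0.58.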
